A study of Mus musculus with 16 samples.

Results

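The Ccdc genes are the mouse genes whose symbol is Ccdc followed by a number, for coiled-coil domain containing, and 147 of the 23420 genes in the embryonic stem (ES) cell count tables carry such a name. They were chosen by name alone, with no measured value in the rule, but the family was picked for description with earlier results of these data known. A coiled coil is a protein fold in which helices wind around each other, and the name was given to proteins of otherwise unknown function, so the family is not a family by descent. Many of its members were later found to build the axoneme, the microtubule core of motile cilia and of the sperm flagellum. Others work in meiosis, in sperm formation, or at the centrosome, the organelle from which a cilium grows. By background knowledge of function, 22 members were set down as motile cilium genes, 24 as testis genes, 16 as centrosome genes and 85 as other genes.

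The expression values come from 8 libraries of J1 mouse ES cells (strain 129S4/SvJae, passage 36), 2 per group, taken at day 3. All 8 carry the transgene Tn(dCas9-VPR/RLTR10B2-gRNA-DsRed). It holds dCas9-VPR, a Cas9 without nuclease activity joined to transcription activators, and a guide RNA named for RLTR10B2, a family of retroviral long terminal repeats, so no group lacks the construct. Control cells received neither treatment, Dox cells received doxycycline at 1 µg/ml, A-MYB cells expressed A-MYB without doxycycline, and Dox + A-MYB cells had both. A-MYB, the product of Mybl1, is a transcription factor that drives gene expression in male meiosis. The sources used here do not give how A-MYB was delivered or whether the line is 1 clone. The cells grew without feeder cells in serum medium with 2 kinase inhibitors and LIF, which hold ES cells undifferentiated. The series also holds lists of regions enriched for H3K27ac, a histone mark of active promoters and enhancers, in pachytene spermatocytes from males of strain C57BL/6J, 8 to 12 weeks of age. There are 2 wild-type and 2 A-mybrepro9/repro9 mutant libraries, and each cell suspension came from 1 male.

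The ES libraries held 26995317 to 33771487 reads assigned to genes. The 2 Dox + A-MYB libraries stood apart: 17602 and 17554 genes had at least 1 read there against 16027 to 16512 in the other 6, and reads outside genes were 9.43% and 8.80% against 7.28% to 8.34%. The summed level of 10 ES cell marker genes was 4470 to 4750 CPM (counts scaled to a fixed library size) in these 2 libraries and 6640 to 7260 in the others. By the test described below, Dox in A-MYB cells lowered 7 of the 10 and raised 2 (Utf1 and Dppa4). Of all tested genes 30.4% fell and 28.5% rose in that contrast. The summed level of 12 germ cell markers was lowest in control cells (55.4 to 59.0 CPM), higher with Dox (91.0 to 102) or A-MYB (95.2 to 104) and highest with both (115 to 125), with Acrv1, Prm1 and Tnp1, genes of sperm maturation, at 0 counts in every library. These markers did not move together. Dox in A-MYB cells raised 5 of the 9 tested and lowered 2, Dazl (means of 57.6 to 43.1 CPM) and Crem (7.25 to 5.25). Stra8 fell with Dox alone, by 0.73 on the log2 scale. Mybl1 was at 19.9 ± 2.96 CPM (mean ± SD, n = 2) in A-MYB cells and 18.3 ± 2.32 where Dox was added, against 7.65 ± 1.04 in control and 10.6 ± 0.581 with Dox alone. Whether these shifts take part in the results on Ccdc genes was not tested. In bulk RNA, more cells that express a gene and more RNA per cell cannot be told apart. With 2 wells of 1 line a group, p-values measure the spread between these wells, which may be technical.

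The promoters of 5 members that the results turn on are printed here, chosen after their values were seen: Ccdc13, Ccdc164, Ccdc37, Ccdc79 and Ccdc84. Each runs 5′ to 3′ on the gene's strand, from 250 bases before to 50 bases after the start that RefSeq gives (GRCm38.p6). Capitals mark GTTNCC on either strand, the partial site bound by RFX factors, which drive cilium genes.
Ccdc13, chr9:121839412-121839711, minus strand: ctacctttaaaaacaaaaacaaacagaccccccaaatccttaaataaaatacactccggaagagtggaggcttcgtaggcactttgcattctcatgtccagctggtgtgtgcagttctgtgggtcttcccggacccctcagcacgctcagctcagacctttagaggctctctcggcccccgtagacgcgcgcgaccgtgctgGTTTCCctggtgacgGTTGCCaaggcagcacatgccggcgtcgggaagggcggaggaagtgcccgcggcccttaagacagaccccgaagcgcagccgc
Ccdc164, chr5:30281143-30281442, plus strand: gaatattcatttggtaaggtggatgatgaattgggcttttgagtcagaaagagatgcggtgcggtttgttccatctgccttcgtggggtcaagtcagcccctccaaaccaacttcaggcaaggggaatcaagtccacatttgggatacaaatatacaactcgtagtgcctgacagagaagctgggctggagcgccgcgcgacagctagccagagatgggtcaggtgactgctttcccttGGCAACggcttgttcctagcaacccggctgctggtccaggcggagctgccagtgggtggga
Ccdc37, chr6:90428431-90428730, minus strand: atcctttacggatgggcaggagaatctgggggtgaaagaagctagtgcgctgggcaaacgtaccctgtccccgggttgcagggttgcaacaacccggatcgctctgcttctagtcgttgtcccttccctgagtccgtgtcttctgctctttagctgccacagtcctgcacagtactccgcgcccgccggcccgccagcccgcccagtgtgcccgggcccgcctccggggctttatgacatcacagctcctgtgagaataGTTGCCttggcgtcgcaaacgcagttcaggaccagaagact
Ccdc79, chr8:104509838-104510137, minus strand: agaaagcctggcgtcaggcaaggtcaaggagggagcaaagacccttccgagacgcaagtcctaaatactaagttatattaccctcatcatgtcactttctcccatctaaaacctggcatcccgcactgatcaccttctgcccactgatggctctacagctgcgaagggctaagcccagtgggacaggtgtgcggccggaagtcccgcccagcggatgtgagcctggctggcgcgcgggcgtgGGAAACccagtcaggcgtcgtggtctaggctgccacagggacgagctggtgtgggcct
Ccdc84, chr9:44418020-44418319, minus strand: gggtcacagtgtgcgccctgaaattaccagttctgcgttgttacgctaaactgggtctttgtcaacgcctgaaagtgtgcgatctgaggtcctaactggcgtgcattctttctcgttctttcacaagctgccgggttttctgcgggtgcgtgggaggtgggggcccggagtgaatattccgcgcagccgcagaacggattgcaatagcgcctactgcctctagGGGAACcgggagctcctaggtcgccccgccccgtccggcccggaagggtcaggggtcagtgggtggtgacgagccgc
All 5 windows hold GTTNCC. So do a promoter of Ccdc136 and that of Ccdc8, genes that fell with Dox in A-MYB cells. The promoters of Ccdc114, Ccdc155, Ccdc173, Ccdc36 and Ccdc73, genes that rose there, have no match. Ccdc13 has 2 copies, beginning 48 and 33 bases before the start. Those of Ccdc164, Ccdc79 and Ccdc84 begin 11, 8 and 27 bases before it, and that of Ccdc37 lies after it. Of the 119 members with a RefSeq promoter, 60.5% hold GTTNCC, against 49.0% of all 17704 promoters of counted genes. The share was 78.9% of 19 motile cilium promoters, 72.7% of 11 centrosome promoters, 52.2% of 23 testis promoters and 56.1% of 66 others. AACNG, the core recognised by MYB proteins, can overlap GTTNCC read on the other strand and is so short that 81.6% of all promoters hold it. It was found in 91.6% of member promoters, and the Ccdc79 window has 0 matches. CACGTG, the E-box, was in 10.1% of member promoters and 9.17% of all. A match describes letters and shows no binding.

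Of the 147 members, 121 (82.3%) had enough reads to be tested, against 62.6% of all genes. These were 16 motile cilium, 15 testis, 15 centrosome and 75 other genes. The other 26 had 16 reads or fewer in any library, and 5 of them (Ccdc144b, Ccdc153, Ccdc42b, Ccdc54 and Ccdc7) had none. Among the tested members 7 passed the filter only through the Dox + A-MYB libraries (Ccdc11, Ccdc148, Ccdc177, Ccdc33, Ccdc42, Ccdc60 and Ccdc69), so they had to be high there, and counts are also given without them. A gene is said to rise or fall where edgeR's quasi-likelihood test gave a Benjamini-Hochberg adjusted p under 0.05 over all 14664 genes tested.

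More members rose in the contrasts that involve both treatments than in the contrasts of 1 treatment. Dox without A-MYB raised 25 members and lowered 15, beside 17.9% and 14.3% of all tested genes. Dox in A-MYB cells raised 60 and lowered 15, beside 28.5% and 30.4%. A-MYB without Dox raised 22 and lowered 16, beside 19.5% and 15.2%. The counts for a single treatment rest on each of the libraries compared: Dox raised 13 or 11 without control replicate 1 or 2 and 12 or 13 without Dox replicate 1 or 2, and A-MYB raised 11 or 13 without control replicate 1 or 2 and 9 or 14 without A-MYB replicate 1 or 2. Without control replicate 1 the fallers were 7 and 8, without Dox replicate 1 they were 8, and without A-MYB replicate 1 they were 9. A-MYB in Dox cells raised 53 and lowered 15, beside 26.8% and 28.4%. The interaction, which is the Dox effect with A-MYB minus the Dox effect without it, was above 0 for 29 and below 0 for 11, beside 16.4% and 24.5%. Leaving out the 7 genes that passed only through the Dox + A-MYB libraries, 114 were left, and the numbers that rose were 25 with Dox alone, 55 with Dox in A-MYB cells, 22 with A-MYB alone, 50 with A-MYB in Dox cells and 29 for the interaction. Of the 13904 genes that pass the same filter, 18.6%, 26.6%, 20.4%, 25.1% and 16.6% rose in these contrasts. Scaling by total counts shifted the median of all genes by up to 0.22 on the log2 scale and gave 74 higher and 7 lower members for Dox with A-MYB, 68 and 8 for A-MYB with Dox, and 43 and 8 for the interaction. The Dox contrasts have no library in common and the A-MYB contrasts have none either. A Dox and an A-MYB contrast share 1 group, so changes found in both are not independent evidence.

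**Figure D1:**
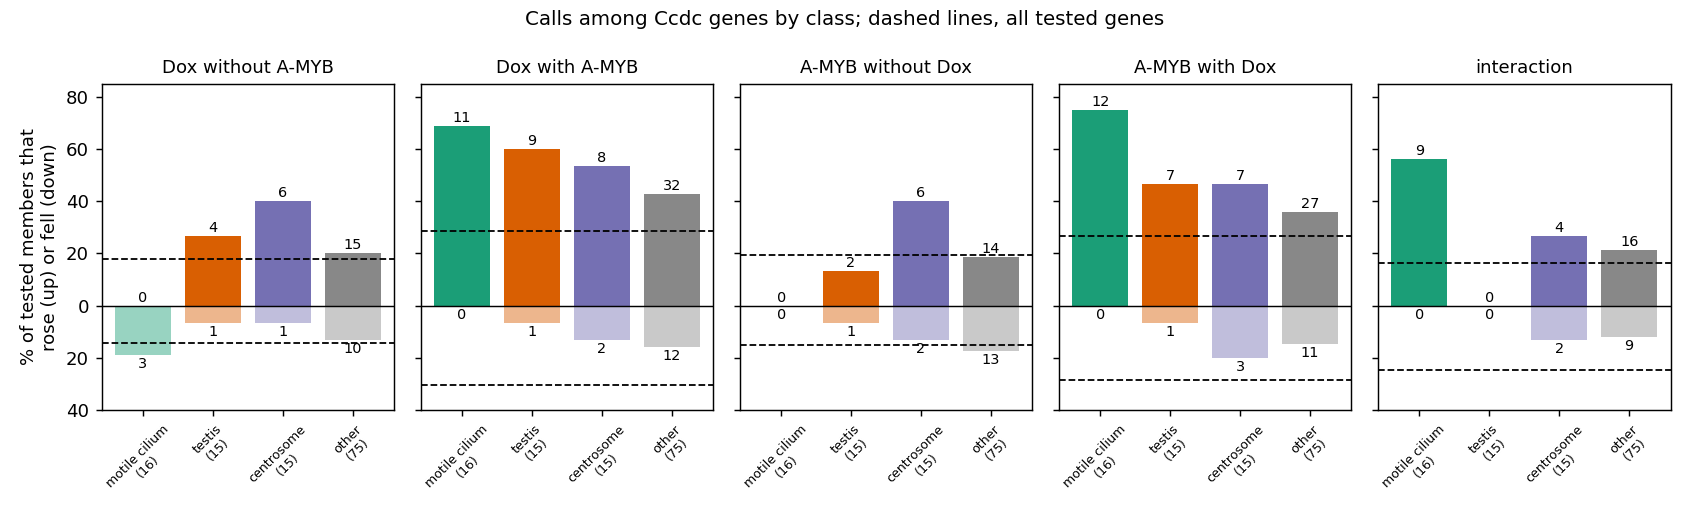
Percent of tested Ccdc genes in each class that rose (up, dark bars) or fell (down, pale bars) in the 5 contrasts, with the number of genes on each bar and the number tested under each class. Dashed lines mark the percent of all tested genes that rose or fell. The motile cilium bar holds 0 risers in the contrasts of 1 treatment and 11, 12 and 9 in the other 3.

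Motile cilium members rose in the contrasts that involve both treatments. Of 16 tested, 11 rose with Dox in A-MYB cells, beside 28.5% of all tested genes, 12 rose with A-MYB in Dox cells, beside 26.8%, and none fell in either, beside 30.4% and 28.4%. Dox alone raised none and lowered 3 (Ccdc113, Ccdc135 and Ccdc151), and A-MYB alone raised and lowered none, although 4 genes in each of these contrasts had an unadjusted p under 0.05. Beside these falls stand 14.3% of all tested genes that fell with Dox alone and 15.2% with A-MYB alone. The interaction was positive for 9, beside 16.4%. Of all tested genes 17.9% rose with Dox alone and 19.5% with A-MYB alone, and of those under 5 CPM in control that pass the filter without the Dox + A-MYB libraries 11.1% and 10.3% did, so 0 of 16 is no result about the class. DESeq2 also found none that rose with Dox alone or changed with A-MYB alone, and other settings called 0 or 1 for A-MYB alone. The 3 falls with Dox alone became 1 in DESeq2's test, with total counts, or without control replicate 1, Dox replicate 1 or Dox replicate 2. The median log2 fold change was 0.06 for Dox alone, -0.26 for A-MYB alone, 1.34 for Dox with A-MYB and 1.26 for A-MYB with Dox, with all tested genes between -0.00 and 0.03. For those genes under 5 CPM in control, 3777 in all, the medians were 0.06, -0.01, 0.54 and 0.48. Low genes thus also moved up where both treatments entered, and 35.9% rose with Dox in A-MYB cells and 33.9% with A-MYB in Dox cells. Without Ccdc11, which passed only through the Dox + A-MYB libraries, the counts were 10, 12 and 9 of 15. Summed over all 22 genes, the level was 58.7 ± 3.2 CPM (SD, n = 2) with both treatments, against 30.1 ± 1.24 in control, 28.5 ± 0.059 with Dox and 27.5 ± 1.97 with A-MYB. Without Dox + A-MYB replicate 2, the count that rose with Dox in A-MYB cells was 7.

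The nexin-dynein regulatory complex links neighbouring microtubule doublets and limits their sliding. Ccdc164 (Drc1, gene ID 381738, chr5:30281335-30366695) encodes a core subunit. Its levels were 0.312 and 0.155 CPM in control, 0.454 and 0.619 in Dox, 0.402 and 0.134 in A-MYB, and 2.45 and 2.76 in Dox + A-MYB cells. Both doubly treated libraries stood above the other 6, while control and A-MYB libraries overlapped. Dox in A-MYB cells raised it 9.75-fold (log2 3.29 ± 0.53 SE, adjusted p 8.13e-06). The interaction of 2.13 ± 0.86 had an adjusted p of 0.049, which did not pass in DESeq2's test, under the replicate block, without the robust fit or without any 1 of 6 libraries. Ccdc135 (Drc7), another subunit, read 0.658 and 0.583 CPM in control, 0.151 and 0.241 in Dox, 0.329 and 0.334 in A-MYB, and 0.964 and 1.60 in Dox + A-MYB cells. It was lowest with Dox alone and highest with both, and its interaction of 3.60 ± 0.85 (adjusted p 0.00143) was the largest among the motile cilium members called. The fall with Dox alone, 3.16-fold, rested at an adjusted p of 0.05 and was lost in 12 of the 15 alternatives. Ccdc65 (Drc2), also a subunit, passed in no contrast, with levels from 0.687 to 1.63 CPM over the 8 libraries.

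The outer dynein arms power the beat and sit on a docking complex that includes Ccdc114 and Ccdc151. Ccdc114 was at 5.71 and 4.82 CPM in control, 6.60 and 6.08 in Dox, 4.78 and 4.01 in A-MYB, and 10.1 and 11.2 in Dox + A-MYB cells. The doubly treated pair was above all others, and the interaction was 1.02 ± 0.25 (adjusted p 0.00177). Ccdc151 read 5.92 and 4.51 in control, 3.30 and 3.51 in Dox, 4.75 and 2.77 in A-MYB, and 5.72 and 6.47 in Dox + A-MYB cells. Here the doubly treated cells overlapped control, while the interaction was 1.32 ± 0.33 (adjusted p 0.0022), and Dox alone lowered the gene 1.54-fold (adjusted p 0.0451). That fall did not pass in DESeq2's test, with total counts, without the robust fit, or without 1 of 3 libraries. Ccdc63, a relative of Ccdc114 needed for the sperm flagellum, was at 1.70 and 1.01 in control, 0.909 and 0.790 in Dox, 1.02 and 1.14 in A-MYB, and 2.92 and 2.79 in Dox + A-MYB cells, with an interaction of 2.07 ± 0.52 (adjusted p 0.0026). Its span overlaps Myl2. Ccdc103, which helps dynein arms attach, rose 2.86-fold with Dox in A-MYB cells (adjusted p 7.63e-05) from 1.46 and 1.44 to 4.29 and 4.0 CPM, and overlaps Fam187a. The sources used here do not give whether counting used strand, so reads of overlapping genes may be shared. In all, 40 members overlap another counted gene, among those named here also Ccdc176 (Entpd5 and others), Ccdc19, Ccdc39 (Ttc14), Ccdc40 (Tbc1d16), Ccdc36, Ccdc116 (Ydjc), Ccdc122 (Lacc1), Ccdc157 (Rnf215) and Ccdc159 (Tmem205).

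Ccdc37 (Cfap100, gene ID 243538, chr6:90403731-90429768), an axonemal protein linked to the inner dynein arms, was at 0.346 and 0.583 CPM in control, 0.545 and 0.756 in Dox, 0.146 and 0.434 in A-MYB, and 2.28 and 2.40 in Dox + A-MYB cells. Control overlapped each single treatment, Dox lay above A-MYB, and both doubly treated libraries were above the other 6. Dox in A-MYB cells raised it 7.85-fold (log2 2.97 ± 0.52, adjusted p 2.44e-05), and the interaction was 2.48 ± 0.76 (adjusted p 0.0112), lost without control replicate 2 or A-MYB replicate 1. Ccdc173 (Cfap210), a protein inside the doublet microtubules, rose 3.17-fold in the same contrast, to 8.94 and 6.76 CPM, and overlaps Phospho2. Ccdc176 (Bbof1), of the basal bodies, rose 3.01-fold to 3.91 and 3.59 CPM. The interaction passed for Ccdc173 (1.27 ± 0.38, adjusted p 0.00877), though not without A-MYB replicate 2, and did not pass for Ccdc176 (0.76 ± 0.51).

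Ccdc113, of the axoneme, was highest in control, at 3.32 and 3.30 CPM, against 0.848 and 1.55 in Dox, 1.64 and 2.47 in A-MYB, and 1.81 and 2.43 in Dox + A-MYB cells. Its fall with Dox alone was 2.79-fold (adjusted p 0.00152), and Dox in A-MYB cells left it at a log2 fold change of 0.04 ± 0.32. Its interaction was 1.52 ± 0.47 (adjusted p 0.0114), lost without Dox replicate 1 or A-MYB replicate 1. It rose with A-MYB in Dox cells by 0.84 ± 0.34 on the log2 scale (adjusted p 0.0409), which did not pass in DESeq2's test or without control replicate 1 or 2, Dox replicate 1 or Dox + A-MYB replicate 2. Ccdc39 and Ccdc40, which together set the repeat along the doublet, passed in no contrast. Ccdc39 ranged from 0.485 to 1.93 CPM and Ccdc40 from 2.52 to 5.13 CPM over the 8 libraries. The interval that their errors leave is wide, with a log2 fold change for Dox in A-MYB cells of 0.44 ± 0.46 and 0.49 ± 0.23. Ccdc19 (Cfap45) and Ccdc96 rose with A-MYB in Dox cells, 3.81-fold and 1.95-fold, and neither had an interaction that passed. Without Dox + A-MYB replicate 2 the rise of Ccdc96 was 0.64 on the log2 scale (adjusted p 0.108) and did not pass. The 6 untested motile cilium members, Ccdc105, Ccdc108, Ccdc147, Ccdc153, Ccdc67 and Ccdc78, had 9 reads or fewer in any library.

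**Figure D2:**
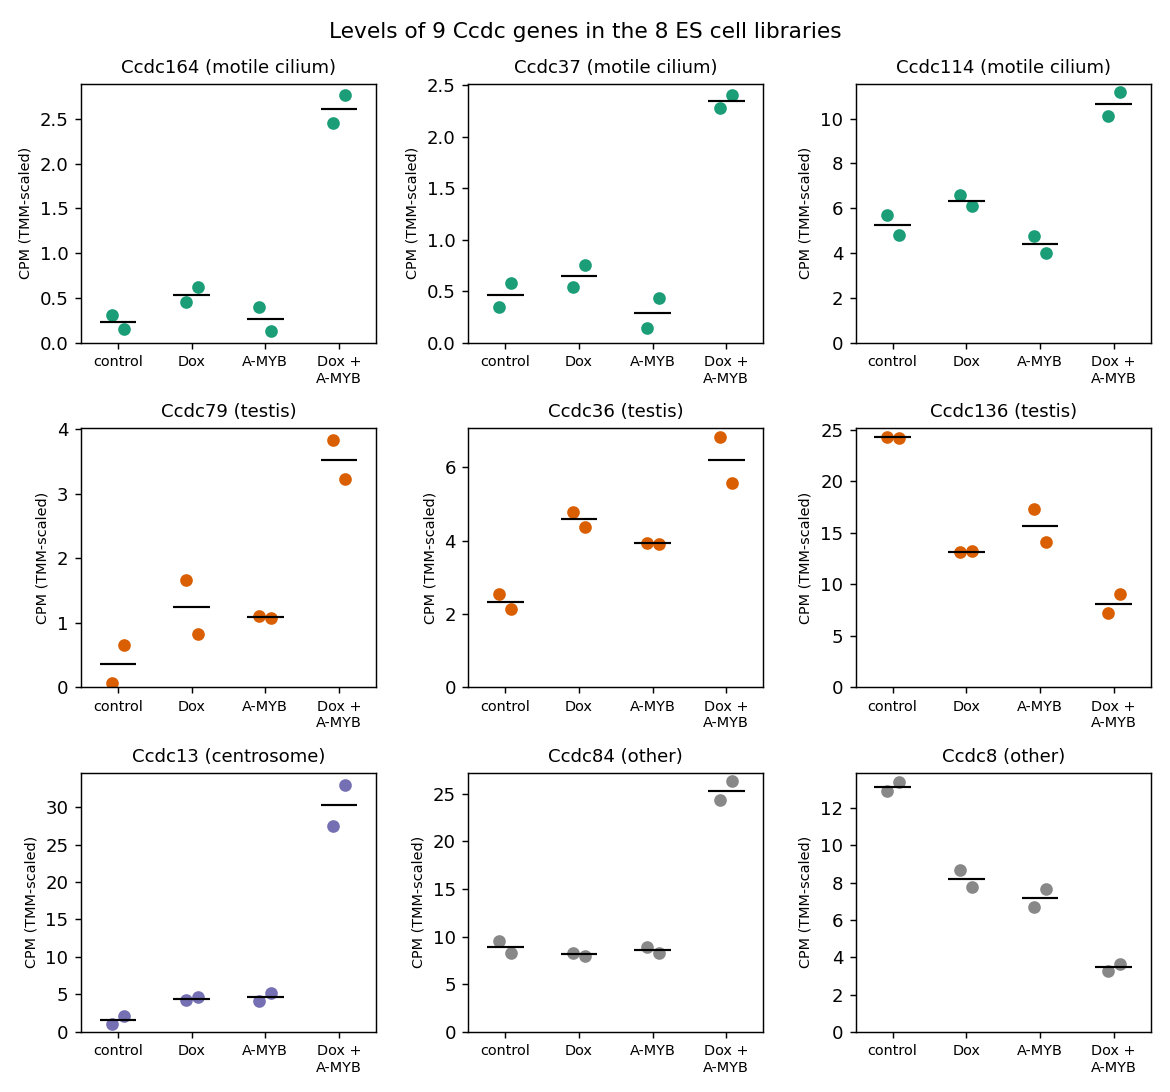
Level of 9 Ccdc genes in CPM (linear axes from 0) in each of the 8 ES libraries. Points are single libraries, 2 per group, and bars are group means. Ccdc164, Ccdc37 and Ccdc84 are high only in the 2 Dox + A-MYB libraries among the 8, Ccdc79, Ccdc36 and Ccdc13 are also above control with a single treatment, and Ccdc136 and Ccdc8 are below control in every treated group.

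Of 15 testis members tested, Dox alone raised 4 and lowered 1 and A-MYB alone raised 2 and lowered 1, beside 17.9% and 19.5% of all tested genes that rose, so these shares are near the background or rest on few genes. Dox in A-MYB cells raised 9 and lowered 1, beside 28.5% that rose, and A-MYB in Dox cells raised 7 and lowered 1, beside 26.8%. In the order given, 14.3%, 15.2%, 30.4% and 28.4% of all tested genes fell in these contrasts. In the edgeR fit 0 had an interaction that passed, although 2 had an unadjusted p under 0.05, and other settings called 0 to 2, with 0 in DESeq2's test. Leaving out Ccdc33 and Ccdc42, which passed only through the Dox + A-MYB libraries, the risers were 4, 2, 7 and 5 of 13. The counts are small and depend on single libraries: Dox alone raised 1 without control replicate 1 or Dox replicate 1 and 2 without Dox replicate 2 or Dox + A-MYB replicate 1, and A-MYB alone raised 0 without A-MYB replicate 1. With Dox in A-MYB cells the lowest count was 6, without Dox + A-MYB replicate 1, and with A-MYB in Dox cells it was 4, without Dox replicate 2. Whether testis and motile cilium members differ in their interaction was not tested. Summed over the 24 genes, the level was 44.2 ± 2.18 CPM (SD, n = 2) with both treatments, against 41.9 ± 0.401 in control, 35.0 ± 1.63 with Dox and 35.5 ± 4.22 with A-MYB, and Ccdc136 makes up 24.3 CPM of the control sum.

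Ccdc36, Ccdc79 and Ccdc155, whose proteins act on meiotic chromosomes, are described one by one. Ccdc36 (Iho1, gene ID 434438), which starts the DNA breaks of meiotic recombination, was at 2.53 and 2.14 CPM in control, 4.79 and 4.36 in Dox, 3.94 and 3.91 in A-MYB, and 6.83 and 5.58 in Dox + A-MYB cells. The 4 groups did not overlap, in the order control, A-MYB, Dox, Dox + A-MYB. Dox alone raised it 1.96-fold (adjusted p 0.00168) and A-MYB alone 1.68-fold (adjusted p 0.0126, lost without control replicate 2 or A-MYB replicate 1), while A-MYB in Dox cells, 1.36-fold, did not pass (adjusted p 0.0656). Ccdc79 (Terb1, gene ID 320022, chr8:104446718-104509887), which fixes meiotic telomeres to the nuclear envelope, read 0.0693 and 0.660 CPM in control, 1.67 and 0.825 in Dox, 1.10 and 1.07 in A-MYB, and 3.83 and 3.23 in Dox + A-MYB cells. It rose in all 4 two-group contrasts, by log2 1.82 ± 0.57 and 1.70 ± 0.44 for Dox without and with A-MYB and by 1.61 ± 0.58 and 1.49 ± 0.43 for A-MYB without and with Dox. Its interaction was -0.12 ± 0.69. The rise with Dox alone did not pass without control replicate 1 or Dox replicate 1, that with A-MYB alone not without control replicate 1, A-MYB replicate 1 or A-MYB replicate 2, and that with A-MYB in Dox cells not without Dox replicate 2. Ccdc155 (Kash5), which ties those telomeres to dynein outside the nucleus, went from 1.49 and 2.1 CPM in control to 3.09 and 2.75 in Dox, and from 2.01 and 2.17 in A-MYB to 5.52 and 6.35 in Dox + A-MYB cells. The rise with Dox alone, 1.64-fold (adjusted p 0.0409), did not pass in DESeq2's test, with DESeq2's size factors, or without 1 of 5 libraries, whereas that with Dox in A-MYB cells, 2.83-fold (adjusted p 9.95e-06), passed in all 15 alternatives.

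Genes of sperm formation gave a mixed picture. Ccdc38, a flagellum gene, was at 0.312 and 0.272 CPM in control, 0.878 and 0.825 in Dox, 0.804 and 0.401 in A-MYB, and 2.69 and 1.66 in Dox + A-MYB cells. It rose 3.62-fold with Dox in A-MYB cells (adjusted p 0.00124), and its span overlaps Snrpf, a gene of the splicing machinery. Ccdc62 and Ccdc157 rose with Dox in A-MYB cells and with A-MYB in Dox cells, 2.40-fold and 2.33-fold for Ccdc62 and 1.49-fold and 1.43-fold for Ccdc157, and each of these 4 calls is lost without 1 or more single libraries. Ccdc159 rose with Dox in A-MYB cells only just (2.18-fold, adjusted p 0.0481), and the call passed in only 8 of the 15 alternatives. It was lost in DESeq2's test, under the replicate block and without the robust fit, among others. Its log2 fold change ran from 0.76 to 1.4 over the alternatives. Ccdc116 and Ccdc172 passed in no contrast. Ccdc136, by contrast, fell in all 4 two-group contrasts, from 24.3 and 24.2 CPM in control to 13.1 and 13.2 in Dox, 17.3 and 14.1 in A-MYB, and 7.19 and 9.02 in Dox + A-MYB cells. No group overlapped control, and the falls were 1.84-fold and 1.93-fold for Dox without and with A-MYB (adjusted p 7.78e-06 and 1.16e-06) and 1.55-fold and 1.63-fold for A-MYB without and with Dox. All 4 falls passed in the 15 alternatives.

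Ccdc33 and Ccdc42, named after their values were seen, were close to unread without both treatments. Ccdc33 had 0 and 0 reads in control, 2 and 2 in Dox, 1 and 0 in A-MYB, and 48 and 18 in Dox + A-MYB cells. Ccdc42, a protein of the sperm head-tail junction, had 0 and 0, 0 and 2, 1 and 0, and 14 and 23 reads. Both passed the low-count filter through the Dox + A-MYB libraries alone, so no fold change is given. The span of Ccdc33 overlaps Gm16130 and Stra6.

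**Figure D3:**
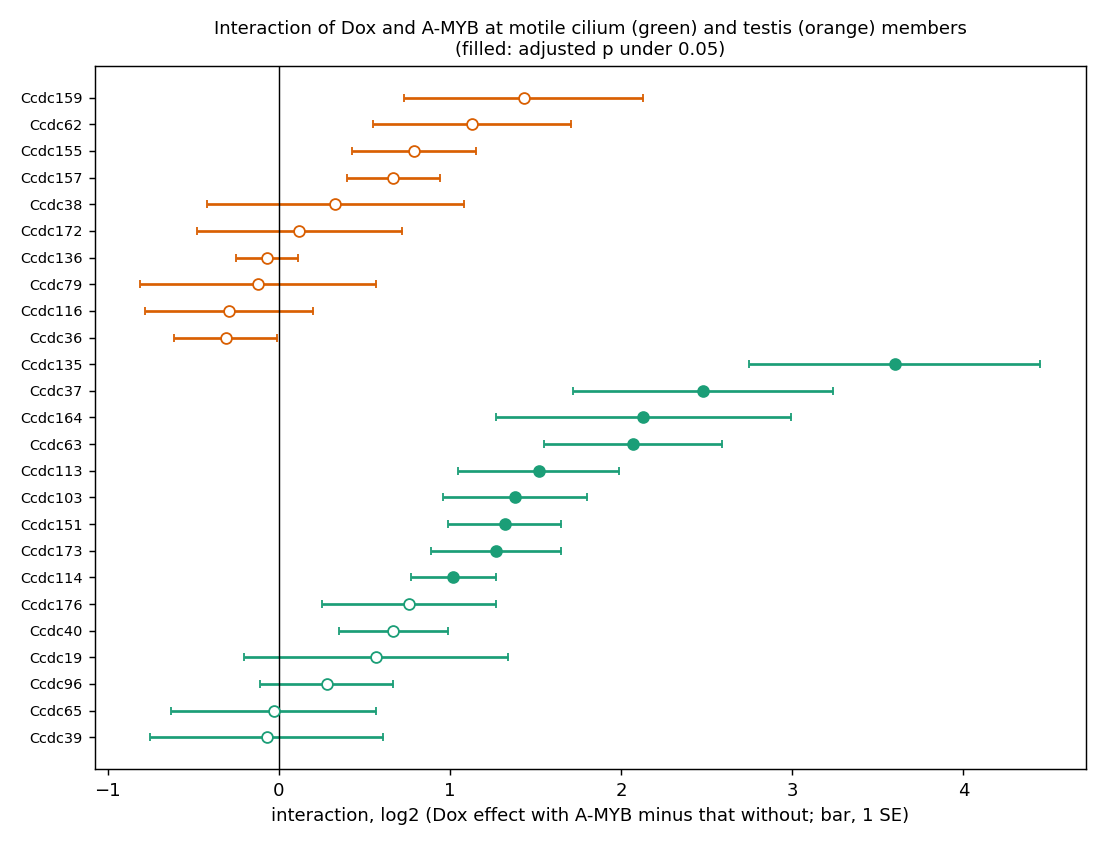
Interaction of Dox and A-MYB on the log2 scale, with bars of 1 SE, for the 15 motile cilium (green) and 10 testis (orange) members with a mean of at least 1 CPM in a group. Filled points have an adjusted p under 0.05. Filled points are found among the motile cilium members, from 1.02 for Ccdc114 to 3.60 for Ccdc135, and none among the testis members.

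Among centrosome members, Ccdc13, a satellite protein needed to grow a cilium, had the largest rise in each of the 4 two-group contrasts. Of 15 tested, Dox alone raised 6 and lowered 1, and A-MYB alone raised 6 and lowered 2. Dox in A-MYB cells raised 8 and lowered 2, and A-MYB in Dox cells raised 7 and lowered 3. The interaction was above 0 for 4 and below 0 for 2. Of all tested genes 17.9%, 19.5%, 28.5%, 26.8% and 16.4% rose in these contrasts, in the same order. The shares of all tested genes that fell were 14.3%, 15.2%, 30.4%, 28.4% and 24.5%. Dox alone raised 2 without any 1 of the control or Dox libraries, and A-MYB alone raised 2 or 3 without any 1 of the control or A-MYB libraries. A-MYB in Dox cells lowered 1 without Dox replicate 2. Summed over the 16 genes, the level was 398 ± 7.81 CPM (SD, n = 2) with both treatments, against 323 ± 9.72 in control, 343 ± 3.92 with Dox and 333 ± 2.87 with A-MYB.

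Ccdc13 (gene ID 100502861, chr9:121797624-121839515) was at 1.07 and 2.1 CPM in control, 4.18 and 4.67 in Dox, 4.09 and 5.21 in A-MYB, and 27.5 and 33.0 in Dox + A-MYB cells. Dox and A-MYB libraries overlapped, both were above control, and the doubly treated libraries were far above all. It rose 2.82-fold with Dox alone (log2 1.5 ± 0.24, adjusted p 4.77e-05), 2.98-fold with A-MYB alone, 6.49-fold with Dox in A-MYB cells and 6.85-fold with A-MYB in Dox cells (adjusted p 7.42e-12). These 4 rises passed in all 15 alternatives. The interaction was 1.2 ± 0.31 (adjusted p 0.00326) and fell to 0.68 (adjusted p 0.152) without control replicate 2.

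Ccdc57, a centriole duplication factor, was at 3.74 and 4.0 CPM in control, 5.51 and 5.81 in Dox, 4.57 and 3.31 in A-MYB, and 11.1 and 11.4 in Dox + A-MYB cells, with an interaction of 0.97 ± 0.26 (adjusted p 0.00434). Ccdc138 was at 7.86 and 7.34, 10.6 and 10.7, 10 and 12.9, and 18.9 and 18.0 CPM in the same order of groups. It rose in all 4 two-group contrasts, 1.4-fold with Dox alone (not without any 1 of the control or Dox libraries), 1.51-fold with A-MYB alone (not without A-MYB replicate 2), 1.61-fold with Dox in A-MYB cells and 1.73-fold with A-MYB in Dox cells. Ccdc15 rose in the same 4, by 1.35-fold to 1.60-fold. Its rises with Dox alone and with A-MYB alone (adjusted p 0.0417 and 0.0448) did not pass in DESeq2's test or without any 1 of the 8 libraries. Ccdc112 rose with Dox by 1.23-fold in either background, but for Dox alone in only 5 of the 15 alternatives, and with A-MYB not without A-MYB replicate 1 or Dox + A-MYB replicate 1. Ccdc61, a basal body protein, went the other way: 45.3 and 43.6 CPM in control, 36.6 and 42.0 in Dox, 30.9 and 30.2 in A-MYB, and 25.1 and 26.6 in Dox + A-MYB cells. A-MYB lowered it 1.46-fold without and 1.52-fold with Dox (adjusted p 4.75e-05 and 3.41e-06).

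Of the other 75 tested members, 15 rose and 10 fell with Dox alone and 14 and 13 with A-MYB alone. Beside them stand 17.9% and 14.3%, and 19.5% and 15.2%, of all tested genes, so these single-treatment counts are near the background. With Dox in A-MYB cells 32 rose and 12 fell, beside 28.5% and 30.4%. A-MYB in Dox cells raised 27 and lowered 11, beside 26.8% and 28.4%. The interaction was positive for 16 and negative for 9, beside 16.4% and 24.5%. Single libraries move these counts too, and the risers with Dox alone were 6 without control replicate 2 and 9 without Dox replicate 1 or 2. Those with A-MYB alone were 8 without control replicate 1 or 2 and 7 without A-MYB replicate 1, and the positive interactions were 10 without Dox replicate 1. The fallers were 4 to 6 with Dox alone without control replicate 1 or a Dox library, and 5 with A-MYB alone without control replicate 1 or A-MYB replicate 1. Ccdc84 (gene ID 382073, chr9:44410159-44418084), a splicing factor of the minor spliceosome, was at 9.56 and 8.24 CPM in control, 8.24 and 8.01 in Dox, 8.91 and 8.25 in A-MYB, and 24.3 and 26.3 in Dox + A-MYB cells. Control overlapped each single treatment, Dox lay just below A-MYB, and both doubly treated libraries were above the other 6. It rose 2.95-fold with Dox in A-MYB cells and 3.11-fold with A-MYB in Dox cells, and the interaction was 1.69 ± 0.19 (adjusted p 1.32e-07), passed in all 15 alternatives. Its span overlaps Rps25, a ribosomal protein gene. Ccdc73 rose 2.12-fold with Dox alone (adjusted p 0.0074, lost without control replicate 1) and 3.79-fold with Dox in A-MYB cells, from 2.34 and 1.84 to 7.39 and 8.42 CPM, and overlaps Eif3m.

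Other members fell in every two-group contrast. Ccdc8 (gene ID 434130, chr7:16993902-16997515), part of a ubiquitin ligase complex with Cul7, was at 12.9 and 13.4 CPM in control, 8.66 and 7.77 in Dox, 6.68 and 7.68 in A-MYB, and 3.27 and 3.65 in Dox + A-MYB cells. It fell 1.60-fold and 2.08-fold with Dox without and with A-MYB and 1.83-fold and 2.38-fold with A-MYB without and with Dox. Ccdc102a fell in the same 4 contrasts, from 22.5 and 26.3 in control to 14.6 and 16.2 in Dox, 14.5 and 15.5 in A-MYB, and 8.27 and 9.14 in Dox + A-MYB cells. Both genes lay below control in every treated library, and their interactions did not pass (-0.37 ± 0.23 and -0.12 ± 0.17). Ccdc85c fell in the same 4 contrasts too, with single-treatment calls (adjusted p 0.0474 and 0.0187) that were each lost without 1 of 3 or more libraries. In all, 4 members fell with Dox in both backgrounds (Ccdc102a, Ccdc136, Ccdc8 and Ccdc85c), and 16 rose in both, among them Ccdc13, Ccdc36, Ccdc79, Ccdc155, Ccdc38, Ccdc57 and Ccdc138. Of all tested genes 9.12% fell and 7.61% rose in both. The rise with Dox alone passed in all 15 alternatives for Ccdc13 and Ccdc36, but in 13 for Ccdc79, 11 for Ccdc138, 10 for Ccdc57, 9 for Ccdc38 and 8 for Ccdc155. The lost calls of Ccdc57 and Ccdc38 include DESeq2's test and leaving out any 1 of the control or Dox libraries.

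In 5 of the 121 tested members Dox moved the gene in opposite directions without and with A-MYB: Ccdc135, Ccdc151, Ccdc22, Ccdc88a and Ccdc88b. Of all tested genes 5.63% did so, and the count is thus near the background and no result about the members. As given above, the falls of Ccdc135 and Ccdc151 with Dox alone passed in only 3 and 9 of the 15 alternatives. Ccdc88b, a relative of girdin found in immune cells, was at 3.77 and 4.04 CPM in control, 1.54 and 1.99 in Dox, 1.64 and 1.90 in A-MYB, and 3.83 and 3.44 in Dox + A-MYB cells. Each treatment alone lowered it, 2.21-fold and 2.20-fold, and the doubly treated cells overlapped control. The interaction was 2.18 ± 0.38 (adjusted p 5.73e-05). Ccdc88a, girdin itself, an actin-binding protein, showed the reverse, with 33.9 and 30.7 CPM in control, 49.1 and 40.4 in Dox, 53.6 and 40.2 in A-MYB, and 38.0 and 30.6 in Dox + A-MYB cells. Its interaction was -0.92 ± 0.21 (adjusted p 0.00452), and each of its 4 two-group calls was lost without 1 or more single libraries. Ccdc106 fell with either treatment alone, 1.90-fold with Dox and 1.46-fold with A-MYB (not without control replicate 1 or A-MYB replicate 1), and had an interaction of 1.23 ± 0.24 (adjusted p 0.000221). Ccdc6, a tumour suppressor best known as a fusion partner of RET, was at 90.8 and 92.8 CPM in control, 99.0 and 97.3 in Dox, 101 and 90.2 in A-MYB, and 53.9 and 53.6 in Dox + A-MYB cells. It fell in the 2 contrasts that involve both treatments, 1.78-fold with Dox in A-MYB cells (adjusted p 3.52e-10), and its interaction was -0.93 ± 0.10.

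**Figure D4:**
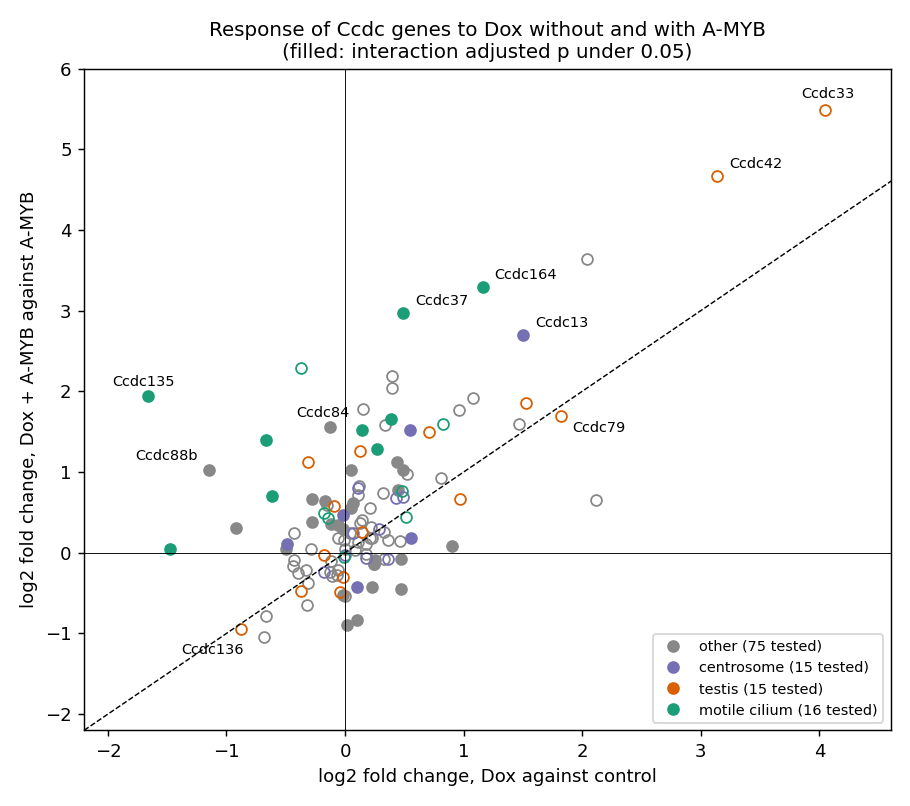
Log2 fold change of each of the 121 tested Ccdc genes with Dox in A-MYB cells (vertical) against Dox without A-MYB (horizontal), coloured by class, with the line of equal change dashed. Filled points have an interaction with an adjusted p under 0.05. Ccdc135 and Ccdc88b fall without and rise with A-MYB, Ccdc79 lies near the dashed line, and Ccdc33 and Ccdc42 rest on 0 reads in control, so their horizontal positions are no measure of size.

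Leaving out the 7 members that passed the filter only through the Dox + A-MYB libraries, these 2 libraries lay above the other 6 for 52 of 114 members, beside 27.1% of the 13904 genes that pass the same filter, and below them for 13, beside 28.6%. The 52 were 10 motile cilium, 7 testis, 7 centrosome and 28 other members, and the 13 held no motile cilium member. With the 7 included the counts were 55 and 13 of 121, beside 29.6% and 27.1% of all tested genes. The cilium and testis members are low in ES cells, so they were set beside other low genes, again without those that passed only through the Dox + A-MYB libraries. Of the 3777 such genes under 5 CPM in control cells, 35.9% rose with Dox in A-MYB cells, 33.9% with A-MYB in Dox cells and 17.8% had a positive interaction, while 11.1% rose with Dox alone and 10.3% with A-MYB alone. Of the 24 such motile cilium and testis members, 14 (58.3%), 14 (58.3%), 7 (29.2%), 4 (16.7%) and 2 (8.33%) did so in the same order. The 2 classes differ within these sums: 8, 10, 7, 0 and 0 of 13 motile cilium members, and 6, 4, 0, 4 and 2 of 11 testis members. The 23 such centrosome and other members gave 13 (56.5%), 10 (43.5%), 4 (17.4%), 5 (21.7%) and 3 (13%). The median log2 fold change with Dox in A-MYB cells was 0.94 in the 24, 0.72 in the 23 and 0.54 in the 3777.

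Cilium genes not named Ccdc were counted by the same calls. Any that passed the filter only through the Dox + A-MYB libraries, and so had to be high there, were not left out. The counts of risers in the contrasts that involve both treatments may therefore be too high. The count tables hold 34 of the listed genes, and 30 were tested: 3 rose and 3 fell with Dox alone, 3 and 2 with A-MYB alone, 15 and 1 with Dox in A-MYB cells, 18 and 2 with A-MYB in Dox cells, and the interaction was positive for 14 and negative for 2. The shares of all tested genes that rose were 17.9%, 19.5%, 28.5%, 26.8% and 16.4% in these contrasts. Those that fell were 14.3%, 15.2%, 30.4%, 28.4% and 24.5%. Among the regulators of cilium genes, Foxj1 had means (n = 2) of 0.841 CPM in control, 0.257 with Dox, 0.810 with A-MYB and 1.13 with both, with an interaction of 2.18 (adjusted p 0.0207). Rfx2 fell with A-MYB in Dox cells by 0.87 on the log2 scale, while Rfx1 rose by 0.30. Rfx3 fell by 0.58 in that contrast (adjusted p 0.00473), after a rise of 0.83 with Dox alone (adjusted p 0.000653), and had an interaction of -1.14 (adjusted p 0.00057). Gas8, a partner of Ccdc164 in the nexin-dynein regulatory complex, rose from 27.6 CPM in A-MYB to 51.2 in Dox + A-MYB cells (adjusted p 6.32e-09). Summed over 6 markers of multiciliated cells, the level was 24.4 to 25.6 CPM with both treatments. It was 14.8 to 18.6 in control, 11.3 to 12.9 with Dox and 13.7 to 14.3 with A-MYB. Most of the sum is Tekt1, with means of 12.2 CPM in control and 19.3 with both treatments. Rsph1 had means of 2.03 in control and 1.71 with both. Of the 5 tested, Tekt1 and Ccno rose with Dox in A-MYB cells and 0 fell, while Foxj1, Rsph1 and Gmnc did not pass. Mcin (Mcidas), the master regulator of multiciliated cells, was at a mean of 0.147 CPM with both treatments and at or near 0 in the other groups. The part of these regulators and markers in the result was not tested.

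In the spermatocytes, none of the 119 members with a RefSeq start had one within 1 kb of an H3K27ac peak in both lists of either genotype, beside 0.864% of 17704 genes in wild type and 0.373% in the mutant. The 4 lists hold 21269 to 29042 peaks, but they reach few starts of any gene, so they say little about the members. Why a mark of active promoters is listed at so few starts was not tested. The lack of a peak is therefore not read as lack of H3K27ac at these starts. Ccdc172, chosen after its value was seen, had a peak in 1 wild-type list, with a fold enrichment of 4.14 in the authors' deposited list.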

How the data were processed

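RNA-seq counts of 8 ES cell libraries in 4 groups of 2 and H3K27ac peak lists of 4 spermatocyte libraries were used. The 4 input libraries were not analysed here. The deposited ES files hold raw counts of reads per gene symbol, with 5 special lines (17.2% to 19.5% of reads) kept out. Per the submitters' processing notes, the tools were bcl2fastq 2.20.0, HISAT2 2.1.0, HTSeq, Bowtie2 2.3.3.1 and MACS 1.4.2, with build mm10. Libraries were made with a stranded kit, per the labels' protocols, and the sources used here give no strand setting for the counting. The deposited peak lists give per peak a count of tags, a score and a ratio, the fold enrichment. The score was not used, and the sources used here do not say which library served as control in each call.

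Library sizes were adjusted by TMM, edgeR's trimmed-mean scaling, and a model was fitted in edgeR 4.0.16 (filterByExpr, robust glmQLFit, 1 model with a coefficient per group, 4 residual degrees of freedom; R 4.3.3, limma 3.58.1). Of 23420 genes, 18917 had at least 1 count and 14664 were tested, two-sided, with Benjamini-Hochberg adjustment over all of them. The test was checked on simulated counts. The SE is |log2 fold change| over the square root of F. The common biological coefficient of variation was 0.0631, and replicates differed by more than sampling noise (chi-square per degree of freedom 5.59 to 14.5). CPM values are edgeR's, from the deposited counts.

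Members and lists were chosen with earlier results of these data known, and classes come from background knowledge of gene function. Named are the tested motile cilium and testis members with a mean of at least 1 CPM in a group, the 5 largest rises and 5 largest falls called per contrast (mean log2 CPM of at least 0, groups not overlapping), and centrosome members called in 1 direction in the pair of Dox contrasts or the pair of A-MYB contrasts. All 147 members were matched to RefSeq (GRCm38.p6), 28 of them by a synonym, for coordinates and promoters. Alternatives were DESeq2 size factors, total counts, DESeq2 1.42.0, other low-count filters, no robust fit, a replicate block and leaving out each library.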

Additional observations from a re-analysis of the deposited data

Results flagged for a closer look

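The Dox effect differed between cells with and without A-MYB for 40 of the 121 tested Ccdc genes. This is by the interaction term of the edgeR fit (adjusted p under 0.05). It was positive for 29 (24.0%) and negative for 11 (9.09%), beside 16.4% and 24.5% of all tested genes. Calls in the negative direction were thus less common among the members than among all genes. Of the 54 tested members under 5 CPM in control, 2 had a negative term. The share of negative terms among all genes that low was not taken. The difference is therefore not read as a trait of the members. Among the members named for their interaction, the term was 2.48 for Ccdc37, 2.18 for Ccdc88b, 2.13 for Ccdc164, 2.07 for Ccdc63 and 1.69 for Ccdc84 on the log2 scale. It was -0.93 for Ccdc6, -0.92 for Ccdc88a, -0.91 for Ccdc71l, -0.82 for Ccdc166 and -0.65 for Ccdc50. Ccdc71l was at 5.92 and 5.91 CPM in A-MYB cells and at 3.48 and 2.91 in Dox + A-MYB cells, with 5.13 and 4.12 in control and 4.33 and 5.09 in Dox cells. Its term did not pass without control replicate 2, Dox replicate 2 or Dox + A-MYB replicate 2. Ccdc166 was lowest in control, at 3.95 and 5.24 CPM, against 8.00 and 9.07 in Dox, 6.54 and 6.61 in A-MYB, and 6.63 and 7.27 in Dox + A-MYB cells, and its term did not pass without control replicate 1 or Dox replicate 2. Ccdc50, a ubiquitin-binding protein, was at 42.2 and 45.4 CPM in control, 55.3 and 47.3 in Dox, 64.2 and 54.9 in A-MYB, and 46.9 and 41.9 in Dox + A-MYB cells, and its term passed in all 15 alternatives.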

How the results depend on the processing

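Of 123 calls on the named genes, 76 passed in all 15 alternatives, 47 were lost in at least 1, and none reversed. Leaving out 1 library at a time gave 11 to 22 risers (25 with all) and 7 to 15 fallers (15) for Dox without A-MYB, and 9 to 21 risers (22) and 8 to 19 fallers (16) for A-MYB without Dox, and these counts thus depend on single libraries. The risers were 47 to 58 for Dox with A-MYB, 45 to 53 for A-MYB with Dox and 21 to 32 for the interaction. Scaling by total counts left 7 fallers of 15 for Dox with A-MYB and 8 of 15 for A-MYB with Dox, and 43 positive interactions in place of 29. Over all tested genes it left 2606 fallers of 4463 and 2367 of 4161 in these contrasts, and 3746 positive interactions in place of 2410. Where 1 library was left out, the lone library of its group was assumed to vary like the others. Counting a peak in at least 1 list of a genotype, 1 member start had one in wild type and 1 in the mutant, in place of 0. Of all 17704 genes 2.43% and 0.864% did. With a window of 0 or 2 kb the count stayed at 0, beside 0.136% to 1.31% of all genes. With peaks of a fold of at least 10 it was 0 for all 17704 genes too, so that setting says nothing about the members.

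The replicate numbers of the labels did not pair the libraries: deviations from the group means correlated across genes by -0.027 to 0.084 between groups. With the replicate block, 27 members rose and 14 fell with Dox alone, 60 and 16 with Dox in A-MYB cells, 22 and 16 with A-MYB alone, 54 and 16 with A-MYB in Dox cells, and the interaction was positive for 29 and negative for 12. Members with few reads are limited by depth, and 26 could not be tested.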
